A study of Mus musculus with 3 samples.

Results

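The Uro cluster holds the urothelial cells of the mouse renal papilla. Its members are the cells that the authors' deposited annotation places in the cluster Uro of the CD (collecting duct) cell type, and they number 5309 of the 181257 annotated cells and of the 49021 CD cells. Of these, 1076 came from healthy controls, 1531 from day 28 and 2702 from day 84 after reversible unilateral ureteric obstruction (R-UUO). All samples were dissected papillae of male BALB/c mice, which the paper's main text calls renal medullas. The authors found that the amount of outer medulla in them varied. They give this as a limit on how precisely outer medullary populations can be quantified. In R-UUO mice the left ureter was clamped at 12 to 13 weeks of age and the clamp was removed some days later. The day counts run from the reversal, and the healthy controls are the comparison group. The methods describe removal of the opposite kidney in long-term studies, which the labels of these samples neither state nor deny. There were 4 pools of control papillae, 4 pools at day 28 and 2 at day 84, each of 3 to 4 papillae dissociated together, and the pool was the replicate. The annotation was taken as given: expression of single genes was not analysed here, so the label could not be checked against the urothelial markers Upk1b and Upk3a.

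Urothelium is the lining of the urinary tract. In the kidney it covers the papilla and the renal pelvis, into which the deep collecting ducts open. On the papilla, the paper reports a thickening from a single cell layer to several in the days after reversal. Where the lining is stratified, its outermost umbrella cells carry plaques of uroplakins and form a tight barrier between urine and tissue. Uroplakins are membrane proteins that include the products of Upk1b and Upk3a. Basal and intermediate cells lie beneath the umbrella cells there and can renew the lining after damage. Urothelium of the upper urinary tract and the collecting duct both derive from the ureteric bud. Ureteric obstruction dilates the pelvis and stretches this lining.

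Several features of the libraries bear on all values. The pools held between 13013 and 24338 cells, and their median UMI count per cell, over all cells, ranged from 1139 to 1578 in the controls, from 1566 to 3302 at day 28 and from 751 to 911 at day 84. The number of pools, not counting error, set the precision of every share. Proximal tubule cells lie outside the papilla, in the cortex and the outer stripe of the outer medulla. They made up between 0.113% and 3.02% of the cells of a control pool and between 2.95% and 22.8% at day 28. In the day 84 pools they made up 3.60% and 7.64%. A cell's barcode names a droplet and a pool, and 57.2% of control Uro cells, 44.7% at day 28 and 24.9% at day 84 lay in a droplet barcode that another pool of their own condition also used. Droplet barcodes of Uro cells recurred in other conditions in 10.5% to 13.4% of cases, so each condition looked like a droplet run of its own, and run and condition cannot be told apart. Of the cells that shared a droplet barcode with a Uro cell, the Uro cells themselves numbered 4 of 786 in controls, 12 of 843 in day 28 pools, and 46 of 674 in day 84 pools. These shares of 0.509%, 1.42% and 6.82% compare with 1.35%, 2.54% and 6.18% Uro cells in the pools that the partners came from. Only at day 84 was the partner share above the pools' own share, by a small margin that was not tested. A pair of Uro cells in 1 droplet barcode counts from both sides here.

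Uro cells were a larger part of the CD lineage after R-UUO than in healthy papillae. They made up 5.62%, 4.60%, 3.04% and 3.54% of CD cells in control pools 1 to 4. The day 28 pools gave 15.0%, 12.6%, 11.7% and 19.3%, and the day 84 pools 22.3% and 18.2%. Every pool after R-UUO lay above every control pool, and the lowest of them held more than the highest control pool by a margin wider than the binomial intervals, whose upper bound in that control pool was 6.19% and whose lower bound in the lowest day 28 pool was 10.7% (95% Wilson intervals, counting error only). The control mean was 4.20% ± 1.15 (SD, n = 4 pools). The day 28 mean of 14.6% ± 3.39 (SD, n = 4) and the day 84 mean of 20.2% ± 2.86 (SD, n = 2) were 3.49-fold and 4.82-fold the control mean.

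On the log2 odds scale the share of CD cells rose by 1.98 at day 28 (SE, the standard error, 0.295, limma adjusted p = 9.16e-05 over the 6 CD clusters). An exact two-sided permutation test of the same values gave p = 0.0286, the smallest that 4 pools against 4 can give. At day 84 the rise was 2.57 (SE 0.362, limma adjusted p = 5.49e-05), and the permutation test gave its smallest possible p of 0.0667, so 2 pools against 4 cannot pass 0.05 there. The other CD clusters moved as well: 83.3% of the 6 clusters passed at day 28 and 50% at day 84. The rise of Uro ranked second in both comparisons, after that of InjuredCD, the cluster of injured collecting duct cells. Day 84 and day 28 differed by 0.58 in log2 odds (95% interval -0.21 to 1.38, limma adjusted p = 0.599), and none of the 6 CD clusters passed in that comparison (0% with limma, 0 at an unadjusted p under 0.05 and 0 with edgeR's quasi-likelihood test).

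**Figure D1:**
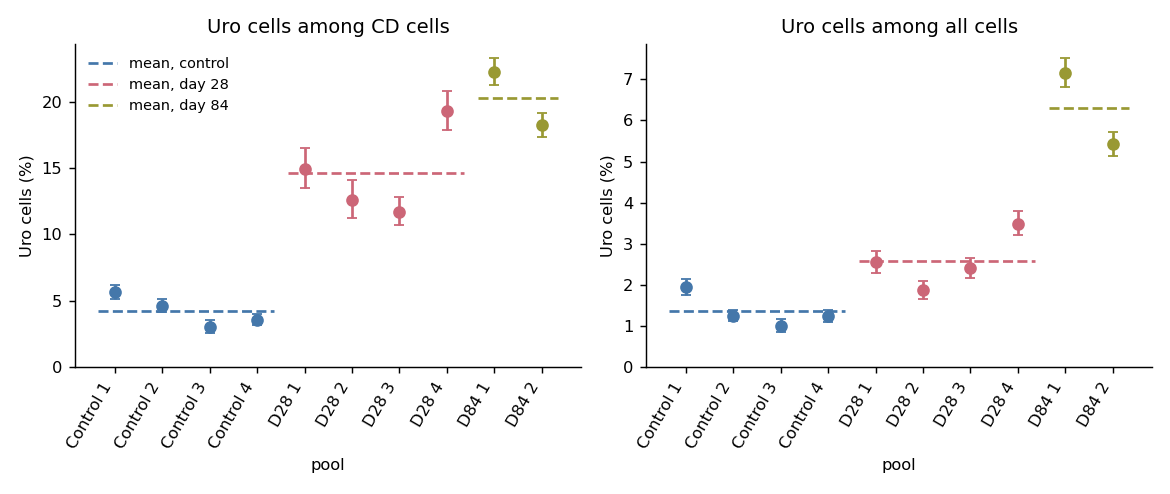
Uro cells as a percentage of the CD cells (left) and of all cells (right) of each pool, with 95% Wilson intervals for counting error and dashed lines at the group means. In the left panel the 6 pools after R-UUO lie between 11.7% and 22.3% and the 4 control pools between 3.04% and 5.62%; in the right panel D28 2, at 1.86%, overlaps Control 1, at 1.94%.

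A share of CD cells also moves when other CD clusters shrink, so the same cells were set against all cells of the pool. Uro cells made up 1.94%, 1.25%, 0.992% and 1.23% of all cells in the control pools. At day 28 they were 2.54%, 1.86%, 2.40% and 3.49%, and at day 84 they were 7.16% and 5.42%. The day 28 range touched the control range, since 1 of its pools lay just under the highest control pool, while both day 84 pools lay above all others. The means of 1.35% ± 0.408 (SD, n = 4), 2.57% ± 0.676 (SD, n = 4) and 6.29% ± 1.23 (SD, n = 2) correspond to 1.90-fold the control mean at day 28 and 4.65-fold at day 84.

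The log2 odds of a cell being Uro rose by 0.95 at day 28 (SE 0.280, limma adjusted p = 0.0107 over 25 clusters), with an exact permutation p of 0.0571. The day 84 rise was 2.32 (SE 0.343, limma adjusted p = 0.000579, exact permutation p = 0.0667). In these comparisons 88% and 48% of the 25 clusters passed, and Uro held rank 10 from the top at day 28 and rank 9 at day 84, so a call by itself did not set Uro apart. Between day 28 and day 84 the rise was 1.37 (SE 0.343, limma adjusted p = 0.0431), where 8% of the clusters passed. That last call was lost in 15 of 24 alternative analyses, among them leaving out either day 84 pool, and is read here as a value near the threshold. The day 84 pools also held more Uro cells in number, 1415 and 1287 against 143 to 379 in the controls and 261 to 543 at day 28. How many cells a papilla yielded was not measured, so a larger share and a larger number of urothelial cells per papilla cannot be told apart.

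Because neither denominator is fixed, Uro cells were also counted per cell of each of the 24 other clusters. At day 28, 18 of 24 ratios (75%) passed an adjusted p of 0.05, 10 with more Uro cells per cell of the other cluster and 8 with fewer. At day 84, 18 of 24 (75%) also passed, 15 with more and 3 with fewer. The ratios share the Uro count of each pool, so they are not independent of each other. Their median change was 0.59 on the log2 scale at day 28 and 2.20 at day 84. Set against day 28, the day 84 pools passed for 7 of 24 ratios (29.2%), all with more Uro cells per cell of the other cluster, from 1.58 for MyoFib to 3.40 for PT-S1S2 in log2 units. This comparison was added after the data were seen, and none of the 24 passed with limma once D28 2, D28 3, D84 1 or D84 2 was left out, whereas 10 had an unadjusted p under 0.05 with all pools.

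The largest rises were against clusters of the papilla and inner medulla and against resident fibroblasts. Against EndoVR/papilla, the endothelium of the vasa recta and papilla, the control pools held 26.9 to 49.9 Uro cells per 100 cells, the day 28 pools 146.1 to 6788 and the day 84 pools 564 and 1887. The log2 change was 4.01 at day 28 (SE 1.00, limma adjusted p = 0.00452) and 4.78 at day 84 (SE 1.23, adjusted p = 0.00534). The wide day 28 range came from pool D28 4, which reached the upper end. Without D84 1 the day 84 change was 3.92 and did not pass (adjusted p = 0.0621). Fib, the resident fibroblast cluster, followed with 3.41 at day 28 (SE 0.547, limma adjusted p = 0.000312) and 4.09 at day 84 (SE 0.670, adjusted p = 0.000483). Against ATL, the ascending thin limb of the loop of Henle, which dilutes the tubular fluid deep in the medulla, the Uro count went from 8.95 to 15.0 per 100 cells in control pools to between 67.2 and 187 at day 28 and to 102 and 162 at day 84. These ranges did not overlap with the controls, and the log2 changes were 3.20 and 3.55 (limma adjusted p = 7.59e-05 and 0.000181).

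Within the CD lineage the change in ratio was larger for the inner medullary clusters than for the outer medullary ones, a difference between clusters that was not tested. In log2 odds of all cells at day 28, deepIM-CD and IM-CD themselves fell by 2.56 and 2.48. OM-CD_a fell by 1.06 and OM-CD_b rose by 0.66. Per 100 cells of deepIM-CD, the collecting duct cells of the deep inner medulla, there were 25.4, 12.8, 9.07 and 8.23 Uro cells in the control pools. The day 28 pools had 99.4, 109.7, 42.1 and 603, and the day 84 pools 168 and 134. The groups did not overlap, and D28 4 again stood highest; the log2 changes were 3.37 (SE 0.731, limma adjusted p = 0.00192) and 3.59 (SE 0.896, adjusted p = 0.00490). Against IM-CD, the inner medullary collecting duct, the changes were 3.29 and 3.20 (limma adjusted p = 0.000196 and 0.000945). Against OM-CD_a, an outer medullary collecting duct cluster, they were smaller, 1.92 and 2.58 (limma adjusted p = 0.000922 and 0.000655). Against OM-CD_b, the other outer medullary cluster, the change of 0.29 at day 28 did not pass (adjusted p = 0.485) and that of 1.15 at day 84 did (adjusted p = 0.0454). The last call was lost in 8 of the 10 fits that left out a pool.

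Uro cells lost ground against the injured tubular clusters, though not against these alone. In the control pools there were 1316 to 3158 Uro cells per 100 InjuredCD cells, since no control pool held more than 19 InjuredCD cells. At day 28 there were 98.2, 66.1, 99.2 and 67.2, and at day 84 there were 121 and 149. Uro cells thus went from far outnumbering InjuredCD cells to similar numbers, with log2 changes of -4.50 (SE 0.359, limma adjusted p = 4.09e-06) and -3.78 (SE 0.440, adjusted p = 0.000138). InjuredLOH, the injured cells of the loop of Henle, gave log2 changes of -5.20 (day 28, limma adjusted p = 9.5e-06) and -3.08 (day 84, adjusted p = 0.00108). The proximal tubule cluster PT-S1S2 gave -4.98 at day 28 (limma adjusted p = 0.000584), beside the larger proximal tubule share of the day 28 pools given above, and the part of the dissection in that ratio was not tested. OSOM-TAL_b, a thick ascending limb cluster of the outer stripe, was the third lowest at day 84 with -1.87, which did not pass (adjusted p = 0.0888). The third ratio that fell and passed at day 84 was that to Immune, the immune cells. It changed by -3.52 at day 28 (limma adjusted p = 0.000118) and by -1.70 at day 84 (adjusted p = 0.0214). The day 84 call was lost in 3 of the 10 fits that left out a pool. At day 28 the ratios to PT-S2, PT-S3_a, OSOM-TAL_b and MyoFib also fell and passed, from -4.27 to -1.02.

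**Figure D2:**
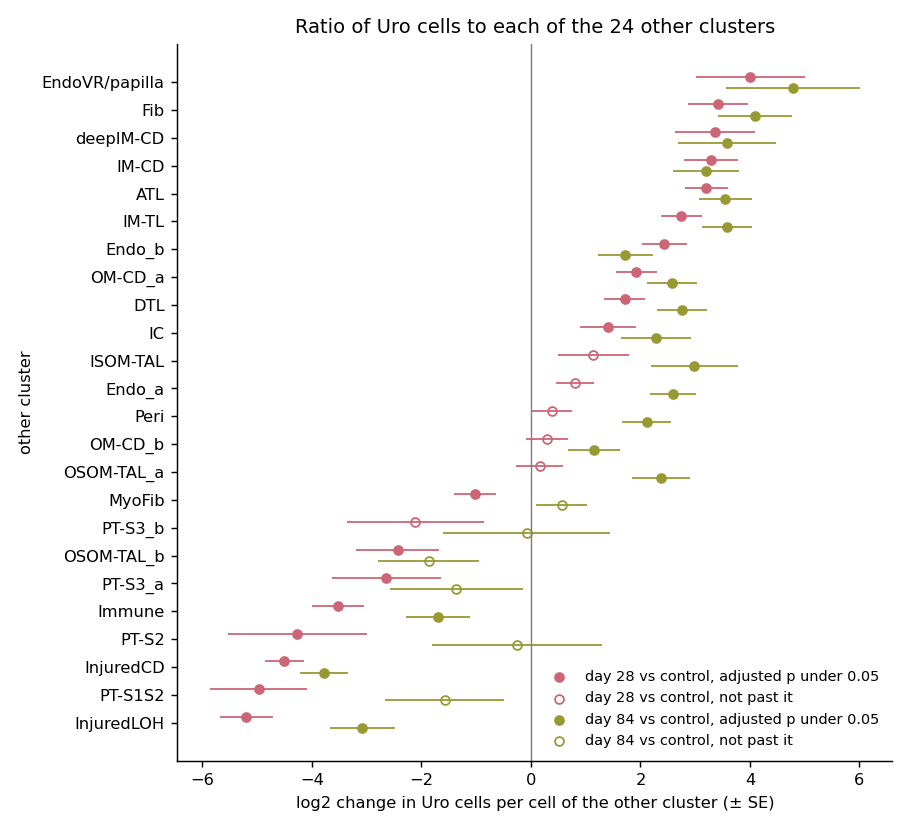
Log2 change, with its standard error, in the number of Uro cells per cell of each of the 24 other clusters, at day 28 (red) and day 84 (olive) against the control pools; filled points passed a limma adjusted p of 0.05. The clusters EndoVR/papilla, Fib, deepIM-CD, IM-CD, ATL and IM-TL lie furthest to the right. InjuredCD, InjuredLOH, Immune, OSOM-TAL_b, PT-S1S2, PT-S2, PT-S3_a and PT-S3_b lie to the left of 0 at both times. Of these, InjuredCD, InjuredLOH and Immune passed at both.

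The UMI count is the number of distinct tagged molecules counted in a cell, here from probes hybridized to RNA. It was higher in control urothelium than in the other CD cells as a whole, and close to or below that of deepIM-CD. The median UMI count of Uro cells was 5807, 7061, 3920 and 4086.5 in the control pools, against 1217, 2328.5, 1380 and 2002 in the other CD cells of the same pools. By this measure Uro ranked first or second among the 25 clusters in every control pool. At day 28 the Uro medians were 6585, 3853, 2951 and 2097, against 3686, 2670, 2845 and 2261 in the other CD cells. The median of D28 1, not corrected for depth, thus lay within the control range, in the pool with the highest median over all cells (3302). In D28 4 the Uro median fell below that of its own CD cells. The rank of Uro slipped to places 3, 6, 6 and 8. At day 84 the Uro medians were 1469 and 1925, against 1406.5 and 791 in the other CD cells, at ranks 5 and 2.

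Since depth differed between conditions, the Uro median was divided by the median of all other cells of its pool. This fold was 5.14, 4.52, 3.36 and 3.41 in the control pools, 2.03, 1.76, 1.61 and 1.35 at day 28, and 1.67 and 2.63 at day 84. Every pool after R-UUO lay below every control pool. The mean fold was 4.11 ± 0.870 (SD, n = 4) in controls. It was down to 1.69 ± 0.283 (SD, n = 4) in the day 28 pools, and in the day 84 pools to 2.15 ± 0.682 (SD, n = 2). On the log2 scale the relative median fell by 1.28 at day 28 (SE 0.171, limma adjusted p = 2.13e-05 over the 18 clusters with at least 10 cells in every pool, exact permutation p = 0.0286). At day 84 it fell by 0.95 (SE 0.209, limma adjusted p = 0.00386, exact permutation p = 0.0667). Without pool D84 1 the day 84 change was -0.62 and did not pass (adjusted p = 0.130). The 2 times differed by 0.33 (95% interval -0.12 to 0.78, limma adjusted p = 0.274), where 0% of the clusters passed with limma and 5 of 18 had an unadjusted p under 0.05.

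**Figure D3:**
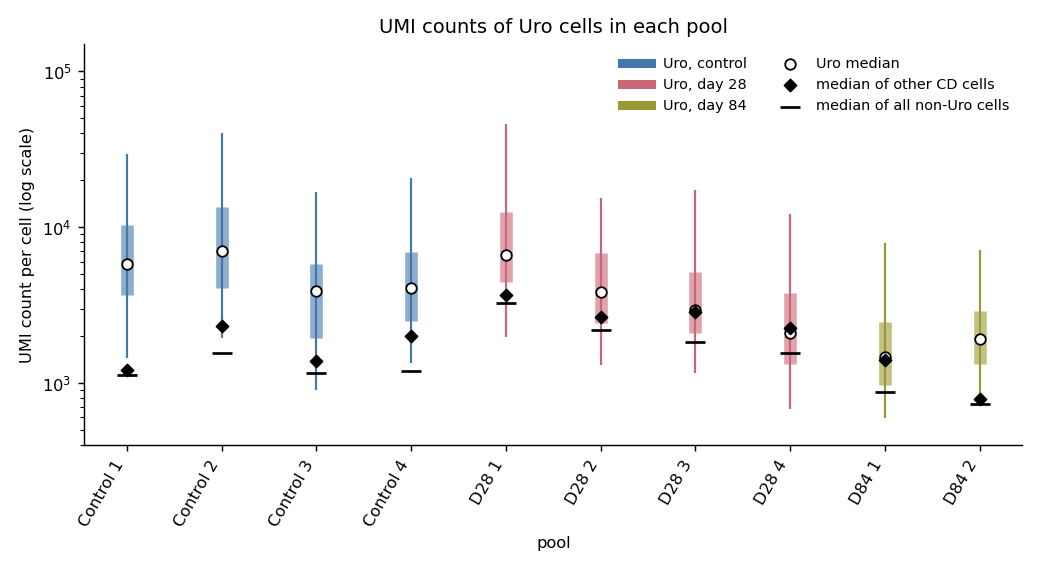
UMI counts of Uro cells in each pool on a log scale: open circles are medians, thick bars run from the 25th to the 75th percentile and thin lines from the 5th to the 95th; diamonds and dashes give the medians of other CD cells and of all non-Uro cells. The Uro medians stand clear of both in every control pool, and lie close to or below the median of other CD cells in D28 3, D28 4 and D84 1.

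Among the clusters tested for relative UMI count, 33.3% passed at day 28 and 11.1% at day 84, all of them lower than in controls. At both times the strongest fall was that of deepIM-CD, by 1.36 at day 28 and 1.02 at day 84, and the next that of Uro. No other cluster passed at day 84. The median change over the 18 clusters was -0.18 at day 28 and -0.05 at day 84.

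Set against each CD cluster in turn, the Uro median gave lower folds after R-UUO than in any control pool for OM-CD_a, OM-CD_b and InjuredCD, and overlapping folds for IM-CD and deepIM-CD. Uro cells carried 5.39, 5.46, 3.96 and 3.87 times the median UMI count of OM-CD_a in the control pools. The folds were 2.49, 1.77, 1.58 and 1.21 at day 28 and 1.84 and 2.94 at day 84, all below the controls. Against InjuredCD the control folds of 3.37, 3.13, 3.16 and 3.69, which rest on 8 to 19 InjuredCD cells per pool, compared with 1.02, 0.996, 0.762 and 0.979 at day 28 and with 0.772 and 1.03 at day 84. Urothelial and injured collecting duct cells thus had similar medians after R-UUO. Against deepIM-CD the folds were 0.950, 1.01, 0.596 and 0.738 in controls, 1.02, 0.903, 0.688 and 0.685 at day 28 and 0.586 and 1.08 at day 84, with full overlap.

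These 10 comparisons (5 clusters at 2 times) were tested by exact two-sided permutation of the log2 folds. Relative to OM-CD_a, OM-CD_b and InjuredCD the folds changed to 0.369, 0.417 and 0.280 of the control level at day 28, each with a permutation p of 0.0286 and an adjusted p of 0.0952. No comparison passed after adjustment, since the test has no smaller p for 4 pools against 4. For IM-CD the change to 0.530 had a permutation p of 0.0857. For deepIM-CD the change to 1.01 had a permutation p of 0.971 at day 28, and that to 0.987 at day 84 had a permutation p of 0.933.

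**Figure D4:**
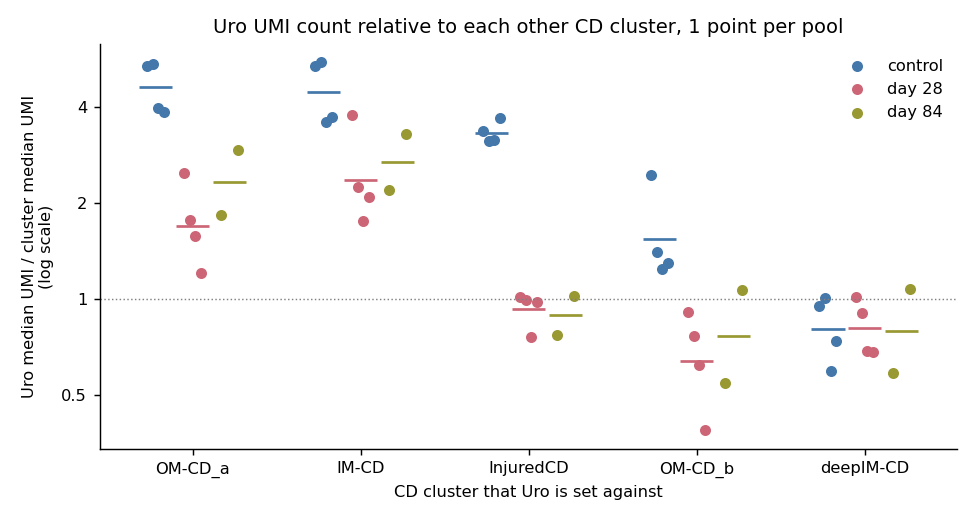
Median UMI count of Uro cells divided by that of each other CD cluster, 1 point per pool on a log scale, with short lines at the geometric means; the dotted line marks equal medians. For OM-CD_a, InjuredCD and OM-CD_b all points after R-UUO lie below all control points, and for deepIM-CD the 3 groups overlap, between 0.586 and 1.08.

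The spread of UMI counts among Uro cells of a pool stayed wide. The 75th percentile was 2.82, 3.32, 2.98 and 2.77 times the 25th in the control pools, 2.79, 2.83, 2.49 and 2.86 times at day 28, and 2.52 and 2.19 times at day 84. The day 28 and control ranges overlapped, and both day 84 values fell short of the controls. Cells with very high counts were present throughout: the 95th percentile was 16826 to 40532 in controls, 12151 to 45786 at day 28 and 7084 and 7959 at day 84. Very high counts can come from droplets that hold more than 1 cell. The authors removed doublets before deposit, and those left were not tested here.

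Uro cells sat at the upper end of the UMI ranking of a control pool and spread downward after R-UUO. Between 76.2% and 93.1% of control Uro cells belonged to the top quartile of their pool by UMI count, the 25% of cells with the most UMIs. At day 28 the percentage was 67.7%, 52.9%, 49.0% and 40.3%, and at day 84 it was 43.7% and 77.4%. All day 28 pools lay below all control pools, while D84 2 lay inside the control range. In the opposite direction, 2.37%, 3.29%, 11.2% and 2.80% of control Uro cells had fewer UMIs than the median cell of their pool, against 13.6%, 19.2%, 20.7% and 33.7% at day 28. The day 84 pools gave 21.6% and 5.91%, on either side of the highest control pool.

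The day 28 change in share of all cells differed with the cells that were counted, and the quartiles are themselves set by the UMI count described above. Within the top UMI quartile, Uro cells made up 7.22%, 4.32%, 3.02% and 3.98% of control cells and 6.89%, 3.94%, 4.70% and 5.62% of day 28 cells. These ranges overlapped almost fully, and the log2 odds differed by 0.24 (limma adjusted p = 0.630). In the remaining 3 quartiles, Uro cells made up 0.177%, 0.225%, 0.314% and 0.315% of control cells and 1.10%, 1.17%, 1.63% and 2.77% of day 28 cells. There the groups did not overlap, the mean was 6.47-fold that of controls, and the log2 odds rose by 2.64 (limma adjusted p = 0.000915). At day 84 the share rose in both parts, to 12.5% and 16.8% of the top quartile and to 5.37% and 1.64% of the rest, by 1.88 (limma adjusted p = 0.0175) and 3.59 (adjusted p = 0.000809) in log2 odds. The share of CD cells, by contrast, also passed in the top quartile, with a rise of 1.32 at day 28 (limma adjusted p = 0.0313) and of 2.09 at day 84 (adjusted p = 0.00901).

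**Figure D5:**
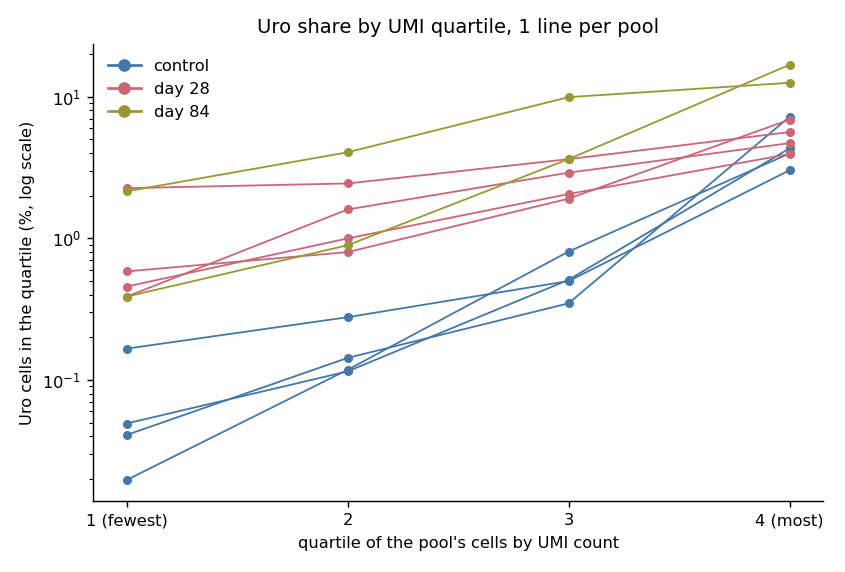
Percentage of Uro cells in each quartile of a pool's cells ranked by UMI count, on a log scale, 1 line per pool. In the top quartile the control and day 28 lines overlap, between 3.02% and 7.22%, and in the 3 lower quartiles all control lines lie below all lines after R-UUO.

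The same shares were taken in fixed UMI windows. Among all cells with 1000 to 2000 UMIs, Uro cells made up 0.151% to 0.544% in controls, 0.557% to 2.69% at day 28, and 11.4% and 10.2% at day 84. Among cells with 4000 to 8000 UMIs they made up 4.34% to 14.0% in controls, 4.09% to 7.07% at day 28, and 11.3% and 22.3% at day 84. The day 28 rise passed in the lower window (1.57 in log2 odds, limma adjusted p = 0.0333), and the values were -0.11 and -0.22 in the windows of 2000 to 4000 and 4000 to 8000 UMIs (adjusted p = 0.855 and 0.848). For day 84 the rise was 5.02, 2.87 and 1.61 from the lowest to the highest window, and the last did not pass (adjusted p = 0.166). Counted as UMIs in place of cells, Uro contributed 8.14%, 3.41%, 1.87% and 3.08% of the UMIs of the control pools, 5.71%, 2.71%, 3.77% and 4.77% of those of the day 28 pools, and 10.1% and 11.1% of those of the day 84 pools. The day 28 and control ranges overlapped in full (log2 odds difference 0.20, limma adjusted p = 0.703), and the day 84 rise of 1.67 passed (adjusted p = 0.0420). As a share of the UMIs of CD cells the rise passed at both times, with 1.30 (limma adjusted p = 0.0330) and 2.17 (adjusted p = 0.00805). The part of the downward shift of UMI counts, or of differences between runs, in the day 28 rise of all-cell share was not tested beyond these values.

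The number of detected genes followed the UMI count. Uro cells had a median of 3100, 3389, 2148 and 2255.5 detected genes in the control pools, 3182, 2227, 1772.5 and 1466 at day 28, and 1097 and 1310 at day 84. Both day 84 pools lay below all other pools. When Uro cells were compared with other cells of their pool at the same UMI count, they had 1.01, 1.03, 1.00 and 0.984 times the genes in controls, 1.06, 1.04, 0.979 and 1.03 times at day 28, and 1.00 and 1.06 times at day 84. The groups overlapped. The log2 difference from controls was 0.03 at day 28 (95% interval -0.03 to 0.08, limma adjusted p = 0.406) and 0.03 at day 84 (95% interval -0.03 to 0.10, adjusted p = 0.372), where 33.3% and 5.56% of the 18 clusters passed. Between day 84 and day 28 the difference was 0.01 (adjusted p = 0.861), with 5.56% of the clusters passing. At a given UMI count no change in the number of genes per urothelial cell was detectable.

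The mitochondrial percentage, the share of a cell's UMIs from mitochondrially encoded genes, was lower in Uro and in other cells in every pool after R-UUO than in any control pool. Uro cells had means of 2.62%, 2.89%, 2.48% and 3.23% in the control pools, above the other cells of the same pools, at 1.41%, 2.42%, 1.64% and 1.76%. At day 28 the Uro means were 0.174%, 0.0318%, 0.0756% and 0.640%, and at day 84 they were 0.131% and 0%. In D84 2 every Uro cell was listed at 0, so that pool carries no information on this measure. The excess of Uro over other cells was 1.00 percentage points in controls and -0.03 at day 28, a change of -1.03 (SE 0.231, limma adjusted p = 0.00219, exact permutation p = 0.0571), and it was -0.06 at day 84, a change of -1.06 (SE 0.283, limma adjusted p = 0.00542). The day 84 values include D84 2, and without it the change was -1.01 (limma adjusted p = 0.0361). Of the clusters, 88.9% passed at each time and 0% between the 2 times (0 of 18 at an unadjusted p under 0.05). The call by itself therefore does not mark Uro out. Its direction was the less common one, since 12 clusters passed upward and 4 downward at each time. Uro had the third lowest change at both times, after deepIM-CD (-2.69 and -2.62) and OM-CD_b (-1.94 and -1.98). The median change over the clusters was 0.46 at day 28 and 0.59 at day 84. The mean over pools went from 2.81% in control Uro cells to 0.230% at day 28 and 0.0657% at day 84. In the other cells it went from 1.81% to 0.264% and 0.125%. An excess in percentage points had little room at these levels, so its fall does not show a loss relative to other cells.

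Pool D28 4 was the exception, with a Uro mean of 0.640% against 0.124% in its other cells, while the other day 28 pools had less in Uro than in other cells. The same pool held the highest Uro share of CD cells and of all cells at day 28 and the lowest Uro median UMI count. The share of cells with any mitochondrial UMI gave the opposite sign to the mean. No Uro cell lacked one in the control pools, while 14.5%, 55.6%, 37.9% and 6.26% of Uro cells lacked one at day 28, against 35.1%, 67.6%, 74.4% and 76.7% of the other cells. In each day 28 pool a Uro cell was thus more likely than another cell to have at least 1 mitochondrial UMI. Uro cells were also the more deeply read. At day 84, 41.0% of Uro cells lacked one in D84 1, against 61.3% of its other cells. In D84 2 the order was the opposite, with 100% against 96.5%. Against the other CD cells alone the mean changed by -0.40 at day 28 (limma adjusted p = 0.0575) and by -0.49 at day 84 with D84 2 included (adjusted p = 0.0587), neither of which passed.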

How the data were processed

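Papillae were pooled, fixed, dissociated and hybridized with bar-coded probe sets (10x Genomics Flex). Per the submitters' processing notes, reads were processed with Cell Ranger 7.1 and the mm10 build. The authors' filters took out cells under 300 genes or over 10% mitochondrial reads. Ambient RNA was subtracted by SoupX, doublets were dropped through scDblFinder and where signatures mixed, and Seurat integrated and grouped the cells; versions of these are not given in the sources used here. The deposited tables hold, per cell, a UMI count (a whole-number count in 9 pools and an expected count, fractional after correction, in Control 1), the count of detected genes, the mitochondrial percent, pool, cell type and cluster.

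Cells were counted per pool. Shares became log2 odds with 0.5 cells added to both parts, and ratios log2 with 0.5 added. UMI and mitochondrial values were set against the pool's other cells, and detected genes against other cells within 10 UMI bins. All were compared with limma 3.58.1 (R 4.3.3; lmFit, eBayes, 3 conditions in one fit, two-sided) with Benjamini-Hochberg adjustment over clusters and a threshold of 0.05. Permutation tests compared absolute differences in means over all splits. edgeR 4.0.16 was an alternative. Python 3.11.15, pandas 2.3.3, scipy 1.17.1 and matplotlib 3.10.9 made tables and plots. The fits were tested on simulated data. P-values measure the spread between pools. Named clusters are Uro, the other CD clusters, proximal tubule cells, EndoVR/papilla, ATL, and the 3 highest and 3 lowest ratios. Other clusters are named beside their ratios. The cluster and the list of tests were chosen with earlier results of these data known. The alternatives were leaving out each pool, other denominators and references, a stricter filter (500 genes or more, mitochondrial reads up to 5%), dropping the 5% of cells with the most UMIs, 1 cell added, 20 UMI bins, and, chosen after seeing the data, the ratios at day 84 against day 28, a probe barcode block, UMI quartiles and windows, UMIs in place of cells, percentiles and equal cluster weights.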

Additional observations from a re-analysis of the deposited data

Results flagged for a closer look

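Control 3 stood apart from the other control pools in the percentage of Uro cells with fewer UMIs than the median cell of their pool, at 11.2% against 2.37% to 3.29%. D28 4 stood apart from the other day 28 pools in the share of Uro cells in the quartile of cells with the fewest UMIs, at 2.26% against 0.387% to 0.584%. Both were found among 27 groups of 4 pools examined for a value far from the rest, where chance alone gives about 1.35.

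From day 28 to day 84 the Uro share of all cells rose by 1.37 in log2 odds (limma adjusted p = 0.0431), higher in both day 84 pools than in all 4 day 28 pools. Over the same interval the number of Uro cells per cell of another cluster rose for 7 of 24 clusters, on the log2 scale by 1.58 for MyoFib (limma adjusted p = 0.0345), 1.73 for Peri (0.0231), 1.80 for Endo_a (0.0220), 1.82 for Immune (0.0375), 2.11 for InjuredLOH (0.0313), 2.22 for OSOM-TAL_a (0.0220) and 3.40 for PT-S1S2 (0.0375). None of these passed without D28 2, D28 3, D84 1 or D84 2.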

How the results depend on the processing

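Of 282 alternatives over 15 single values, 245 kept direction and side of the threshold. The rise in share of CD cells was lost only in UMI windows, with 0.84 (2000 to 4000 UMIs) and 1.37 (4000 to 8000) at day 28 and 1.92 (4000 to 8000) at day 84, while the day 84 to day 28 difference passed at 2.22 among cells with 1000 to 2000 UMIs. The day 28 rise in share of all cells was lost as UMIs in place of cells (0.20) and in the top UMI quartile (0.24), and turned to -0.11 and -0.22 in the windows of 2000 to 4000 and 4000 to 8000 UMIs, and at day 84 it was lost at 1.61 in the last window. The day 84 to day 28 difference in share of all cells was lost at 1.37 with those conditions alone, at 1.39 with the probe barcode block, at 1.06 with CD and LOH cells as denominator, at 1.47 as UMIs, at 1.64 in the top quartile, at 0.96 in the other 3 quartiles and at 1.83 among cells with 4000 to 8000 UMIs, and leaving out single pools gave 1.15 to 1.58. The day 84 fall in relative UMI count was lost at -0.92 against other CD cells and at -9.53 as percentile points, and leaving out single pools gave -1.28 to -0.62, the last without D84 1. Leaving out single pools also gave -0.00024 to 0.66 for the day 84 to day 28 difference in relative UMI count, -0.0056 to 0.074 and -0.031 to 0.049 for detected genes at day 84 against controls and day 28, and -0.13 to 0.16 for the mitochondrial difference between day 84 and day 28. The mitochondrial change was -0.40 and -0.49 against other CD cells. As cells with a mitochondrial UMI it was 34.3 and 7.85 percentage points, from controls near the ceiling. The 2 day 84 pools differed there in the order of Uro and other cells. The counts of ratios that passed ran from 15 to 18 at day 28, from 13 (without D84 1) to 19 at day 84 and from 0 to 10 between the times over fits without single pools. With CD clusters only, 4, 5 and 0 of 5 ratios passed, since fewer clusters were tested. For the others the cause was not tested.

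The 2 pools at day 84, their low UMI counts and the droplet run that each condition appears to be, from its barcodes, limit all comparisons. A share does not give the number of urothelial cells in a papilla. No paired analysis was possible because pool numbers do not link pools of different conditions to the same animals. The probe barcode, read from each cell's barcode, was used as a block instead. That block took away the day 84 to day 28 call for share of all cells and all 7 ratio calls between those times (0 of 24 passed). It also took away the calls for the ratios to IC at day 28 and OM-CD_b at day 84, leaving 17 of 24 each.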
